A study of Mus musculus with 10 samples.

Results

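The mevalonate pathway enzymes described here are 8 genes, Acat2, Hmgcs1, Mvk, Pmvk, Mvd, Idi1, Fdps and Ggps1, taken by symbol from the 25239 genes of the count table, and all 8 were present. Each passed the filter on low counts in each comparison below. The samples were 10 mouse RNA-seq libraries in 4 groups. MLTC-1, a cell line from a mouse Leydig cell tumour, was treated with DMSO, the solvent control (n = 3), or with hymeglusin (n = 3), an inhibitor of HMG-CoA synthase whose dose and duration the labels do not give. The other groups were untreated primary Leydig cells, which make testosterone in the space outside the tubules of the testis, isolated at an age of 2 months (n = 2) or 24 months (n = 2). No genotype or strain is given for any group, and nothing in the labels tells separate cultures or animals, or pools of animals, apart from repeat libraries, so the p-values measure the spread between these libraries, which may be technical.

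The pathway turns acetyl-CoA into the isoprene units from which cholesterol, ubiquinone, dolichol and the lipid anchors of small GTPases are built. ACAT2 joins acetyl-CoA into acetoacetyl-CoA in the cytosol, HMGCS1 adds another acetyl-CoA to give HMG-CoA, and after its reduction to mevalonate, a step not analysed here, MVK and PMVK phosphorylate mevalonate and MVD decarboxylates it to isopentenyl pyrophosphate. IDI1 isomerises that product, FDPS condenses the units into farnesyl pyrophosphate, and GGPS1 extends farnesyl to geranylgeranyl pyrophosphate. In Leydig cells cholesterol is the substrate of testosterone synthesis, and the transcription factor SREBP2 is known to raise genes of the pathway when membrane sterol is low.

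Library totals ranged from 17407456 to 34787330 counts, with the lowest in 24 months replicate 1. Of 8 Leydig cell markers, summed levels were 8933 to 9181 CPM (the usual unit of a gene's counts relative to the scaled total of its library) with DMSO, 6528 to 6681 with hymeglusin, 17130 to 18970 at 2 months and 15940 to 23420 at 24 months. Hsd17b3, the last enzyme of testosterone synthesis and one of these markers, was at 0 in 2 of the 3 DMSO libraries and averaged 1005 CPM at 2 months. The 2 libraries at 24 months stood farther apart from each other than any other replicate pair: the chi-square of their counts over its degrees of freedom was 134, against 18.9 for the 2-month pair and 3.44 to 7.67 among MLTC-1 pairs.

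Levels are CPM scaled over all 10 libraries, and log2 fold changes come from separate fits for each comparison. In the hymeglusin comparison a log2 ratio of the printed means lies 0.08 above the fitted change, because the libraries are scaled differently in the separate fit.

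Hymeglusin was accompanied by lower mRNA of 7 of the 8 enzymes, from the first step to farnesyl pyrophosphate. Mvd fell most and Pmvk least, and Ggps1, which acts after farnesyl pyrophosphate, did not pass the test. Of all 12873 genes tested, 24.5% were called lower and 23.8% higher at an adjusted p under 0.05 (48.3% in either direction), and the median fitted change over the 8 enzymes was -0.52 against 0.01 over all genes. Scaling by total counts moved the split of all calls from 49.4% to 70.0% higher and the median of all genes to 0.11, and the 7 enzymes fell under each scaling tried. The levels of 7 of the 8 enzymes did not overlap between the groups, which held for 55.8% of all tested genes. Of the Leydig cell markers, 5 of 7 tested were also called lower with hymeglusin and none higher, and the part of that fall in the enzyme values was not tested. Markers of other cells were also called with hymeglusin, higher for 2 of 2 tested endothelium genes (summed levels 72.6 to 78.0 CPM with DMSO and 97.1 to 104 CPM with hymeglusin), 2 of 3 peritubular myoid genes, 1 of 3 macrophage genes, 1 of 3 spermatid genes and 1 fibroblast gene, and lower for 1 lymphocyte gene and 1 of 2 Sertoli genes. Of the endothelium sum, Cdh5 alone averaged 75.7 CPM with DMSO and 98.4 CPM with hymeglusin, and it averaged 15.6 CPM at 2 months. Pecam1 averaged 0.433 CPM with DMSO and 0.991 CPM with hymeglusin. Summed macrophage markers were at 1.16 to 1.82 CPM with DMSO and 3.54 to 4.86 CPM with hymeglusin. Of these, Csf1r, a receptor of macrophages, made up 0.238 and 2.38 CPM on average. The part of these markers was not tested either.

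Acat2, at the entry to the pathway, measured 152, 149 and 135 CPM with DMSO and 118, 116 and 122 CPM with hymeglusin. Every hymeglusin library was below every DMSO library, and the fitted log2 change was -0.37 (SE 0.051, adjusted p = 1.81e-07). Hmgcs1, which encodes the cytosolic target enzyme of hymeglusin, measured 708, 684 and 679 CPM with DMSO and 522, 552 and 527 CPM with hymeglusin. Those groups did not overlap either, with a log2 change of -0.45 (SE 0.046, adjusted p = 2.17e-10).

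Mvk, the first mevalonate kinase, fell from 94.2, 91.2 and 94.98 CPM to 65.2, 62.1 and 69.9 CPM, a log2 change of -0.59 (SE 0.055, adjusted p = 4.54e-11). Pmvk, the kinase after it, measured 54.1, 56.7 and 57.6 CPM with DMSO and 50.8, 45.3 and 52.4 CPM with hymeglusin. The highest Pmvk library with hymeglusin was close to the lowest with DMSO, and the log2 change of -0.26 (SE 0.061) passed the test with an adjusted p of 0.000538. Mvd, the decarboxylase, measured 108, 112 and 113 CPM with DMSO and 67.5, 61.3 and 67.1 CPM with hymeglusin. The gap between those groups exceeded the spread within either, and the log2 change was -0.85 (SE 0.054, adjusted p = 3.2e-15).

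Idi1, the isomerase, measured 138, 132 and 122 CPM with DMSO and 88.5, 90.4 and 81.6 CPM with hymeglusin, with no overlap and a log2 change of -0.67 (SE 0.056, adjusted p = 2.63e-12). Fdps, the farnesyl pyrophosphate synthase, measured 688, 654 and 673 CPM with DMSO and 468, 455 and 451 CPM with hymeglusin. Its groups were likewise apart, with a log2 change of -0.63 (SE 0.046, adjusted p = 6.75e-14). Ggps1 measured 36.1, 32.7 and 28.2 CPM with DMSO and 31.3, 33.9 and 31.6 CPM with hymeglusin. All hymeglusin libraries of Ggps1 lay inside the DMSO range, and the log2 change of -0.08 (SE 0.077, adjusted p = 0.383) turned to 0.02 when libraries were scaled by total counts.

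**Figure D1:**
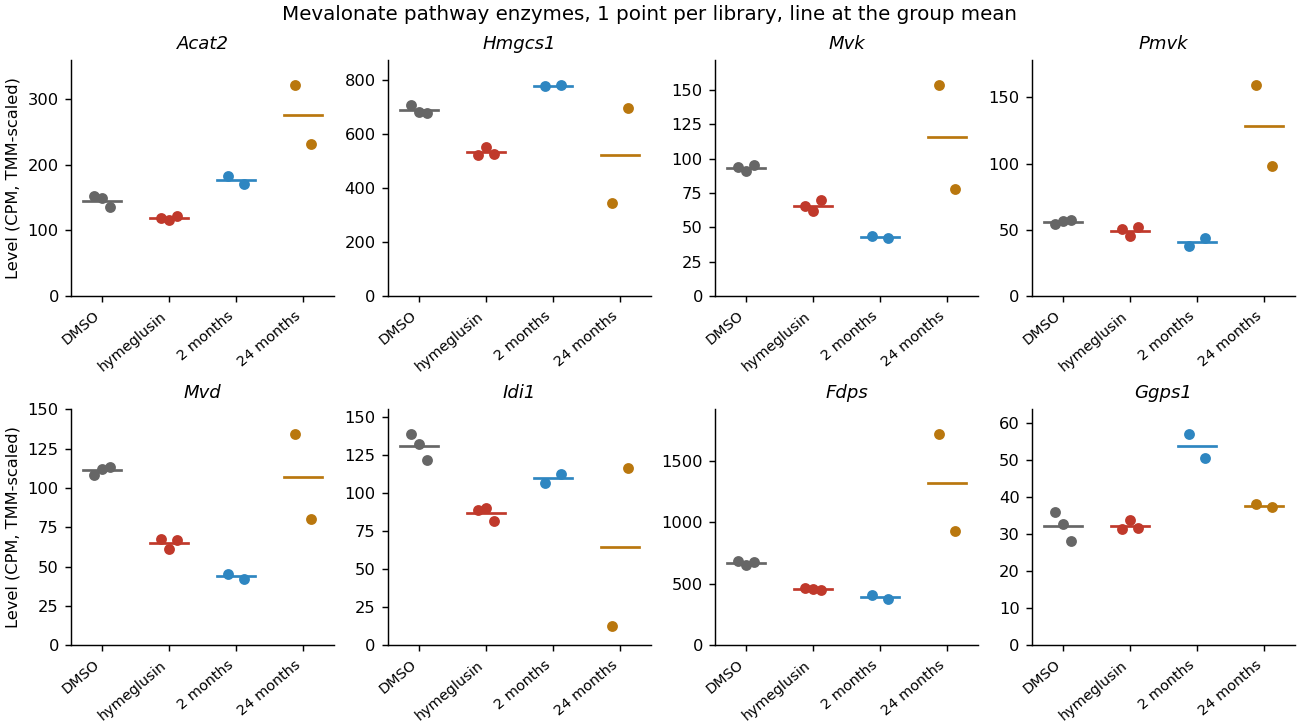
Level of each enzyme in CPM in the 10 libraries, by group, with 1 point per library. In MLTC-1 cells the hymeglusin points lie below the DMSO points for 7 of the 8 enzymes, and Idi1 at 24 months has 1 library at 12.6 and 1 at 117.

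The stretches 250 bases upstream of the RefSeq start sites (GRCm38.p6) are shown for Hmgcs1, Mvk and Mvd, which fell, and for Ggps1, which was not called, because the fall was shared by several genes. Capitals mark matches on either strand to a sterol regulatory element (TCACNCCAC), a CCAAT box (CCAAT, or ATTGG on the other strand) and a GC box (GGGCGG, or CCGCCC); in these 4 windows no matches overlap. The Hmgcs1 window is chr13:119690101-119690350 on the plus strand, that of Mvk chr5:114444019-114444268 on the plus strand, that of Mvd chr8:122443423-122443672 on the minus strand and that of Ggps1 chr13:14063489-14063738 on the minus strand.
Hmgcs1: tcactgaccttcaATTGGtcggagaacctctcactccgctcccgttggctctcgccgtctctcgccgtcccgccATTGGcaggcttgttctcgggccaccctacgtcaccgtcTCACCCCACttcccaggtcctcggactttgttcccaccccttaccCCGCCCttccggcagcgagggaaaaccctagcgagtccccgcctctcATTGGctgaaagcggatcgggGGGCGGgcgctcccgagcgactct
Mvk: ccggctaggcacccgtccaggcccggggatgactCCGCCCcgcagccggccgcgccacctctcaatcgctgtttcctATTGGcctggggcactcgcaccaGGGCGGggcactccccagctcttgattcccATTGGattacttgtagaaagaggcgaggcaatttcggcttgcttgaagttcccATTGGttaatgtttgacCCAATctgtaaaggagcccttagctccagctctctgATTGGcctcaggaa
Mvd: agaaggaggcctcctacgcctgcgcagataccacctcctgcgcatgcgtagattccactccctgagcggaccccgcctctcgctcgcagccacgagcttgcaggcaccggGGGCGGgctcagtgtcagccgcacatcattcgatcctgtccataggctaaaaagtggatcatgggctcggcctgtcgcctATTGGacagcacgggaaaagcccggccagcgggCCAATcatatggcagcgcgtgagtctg
Ggps1: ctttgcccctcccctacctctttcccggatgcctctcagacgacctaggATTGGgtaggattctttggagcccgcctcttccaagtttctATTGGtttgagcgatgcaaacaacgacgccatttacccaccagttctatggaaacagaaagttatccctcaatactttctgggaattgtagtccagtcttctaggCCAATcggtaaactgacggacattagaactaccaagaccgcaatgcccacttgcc

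Of the 8 enzymes, 7 had a RefSeq promoter entry, all but Fdps. The sterol regulatory element letters were found in 1.05% of 32851 windows of this length and, among the 7, in Hmgcs1 alone, at -137 to -129 from the start site (TCACCCCAC). CCAAT letters were found in 33.8% of all windows and in Hmgcs1 (3 matches), Mvk (5), Mvd (2), Idi1 (2), Pmvk (1) and Ggps1 (3), but not in Acat2. GC box letters were found in 32.7% of all windows and in Hmgcs1 (2), Mvk (2), Mvd (1), Idi1 (1) and Acat2 (1), but not in Pmvk or Ggps1. The E-box letters CACGTG, found in 6.02% of all windows, were in none of the 7. These matches describe letters in a window and do not show binding. Only exact letters in 1 window per gene were searched, so a missing match does not show that an element is absent.

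Ratios of enzymes within a library differed between the groups for some pairs. Counts of Fdps per count of Hmgcs1 were 0.957 to 0.990 with DMSO and 0.824 to 0.898 with hymeglusin. Mvd per Mvk was 1.15 to 1.23 with DMSO and 0.960 to 1.04 with hymeglusin, and Fdps per Ggps1 was 19.1 to 23.9 against 13.4 to 14.96. These 3 ratios did not overlap between the groups. Fdps per Idi1, at 4.96 to 5.52 with DMSO and 5.04 to 5.53 with hymeglusin, and Mvd per Idi1, at 0.780 to 0.929 and 0.678 to 0.822, did overlap. Together the 8 enzymes took 0.195% to 0.205% of all counts with DMSO and 0.144% to 0.149% with hymeglusin.

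**Figure D2:**
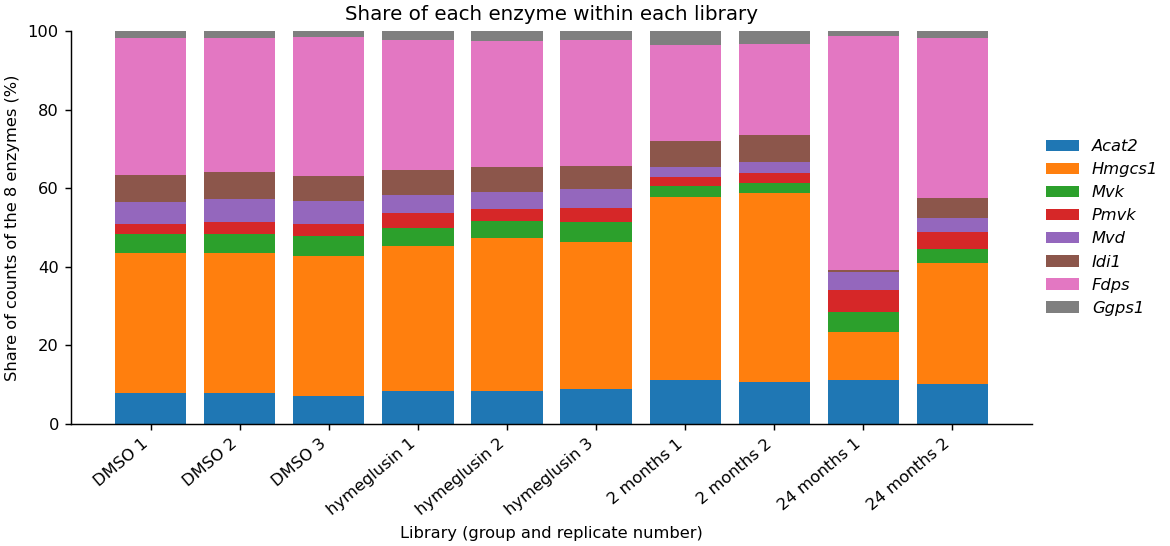
Share of each enzyme (%) in the summed counts of the 8 enzymes, 1 bar per library. Fdps and Hmgcs1 fill most of every bar, and the bar of 24 months replicate 1 differs from that of 24 months replicate 2 in the shares of Fdps, Hmgcs1 and Idi1.

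Genes around the enzymes were read from lists of their suppliers, users and regulators. With hymeglusin 48.3% of all tested genes were called, 24.5% lower and 23.8% higher. Of 13 genes from squalene to cholesterol, 12 fell and 1 rose with hymeglusin (list median -0.53). Hsd17b7, a sterol ketoreductase, fell by 0.84 on the log2 scale and Cyp51, the lanosterol demethylase, fell by 0.62. Lbr, a sterol reductase that also anchors chromatin at the nuclear envelope, was the one that rose, by 0.48. Of 11 tested genes of SREBP control, 9 fell and none rose (median -0.18), among them Stard4, a sterol carrier, at -0.51 and Insig1, which holds SREBPs in the endoplasmic reticulum, at -0.45.

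Of 5 genes that supply acetyl-CoA, 4 fell and none rose (median -0.30), with Slc25a1, the mitochondrial citrate carrier, at -0.61 and Acly, the citrate lyase, at -0.45. Genes that use the isoprenoids divided evenly, with 4 of 19 higher and 4 lower (median -0.07), where 48.3% of all tested genes were called. Fntb, the farnesyltransferase beta subunit, rose by 0.35 and Dolpp1, a dolichyl pyrophosphate phosphatase, by 0.30, while Nus1, a subunit of the dehydrodolichyl diphosphate synthase, fell by 0.31 and Dolk, the dolichol kinase, fell by 0.24.

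Paralogs and other thiolases outside the cytosolic pathway were also lower, 5 of 6 tested (median -0.46). The mitochondrial thiolases Acat1, Acaa2 and Hadhb fell by 0.59, 0.55 and 0.38 and the peroxisomal Acaa1a fell by 0.32. Acat3, a near copy of Acat2, was at 0.48 with an adjusted p of 0.0643. Idi2, the paralog of Idi1, was at 0 counts in 9 libraries and at 2 counts in hymeglusin replicate 2, and was not tested.

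**Figure D3:**
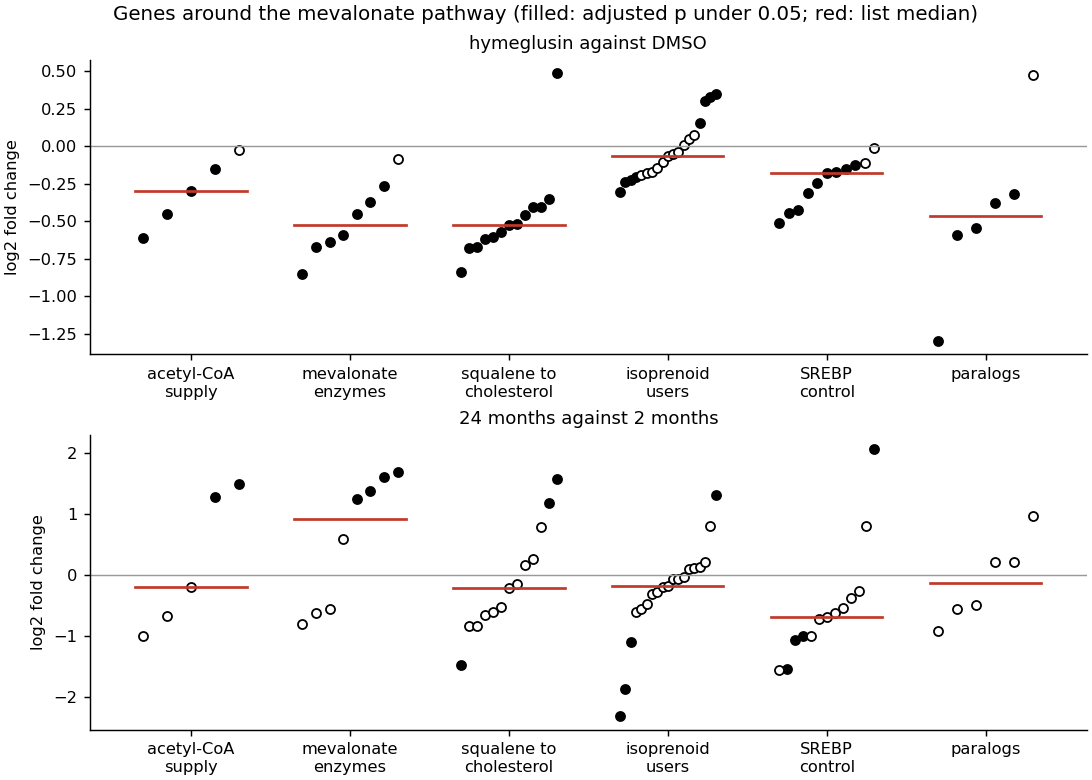
Fitted log2 fold change of every tested gene of the enzyme set and of the 5 lists around it, by comparison. Filled points have an adjusted p under 0.05. With hymeglusin, the squalene to cholesterol genes lie lower (median -0.53) than the isoprenoid users (median -0.07).

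Between the ages, 4 enzymes were higher in the 24-month cells, Mvk, Pmvk, Mvd and Fdps, and 4 were not called, against 13.5% of all 16381 tested genes called higher, 15.1% lower and 28.6% in either direction. A correction for transcript length called none of the 8 and 10.6% of all genes tested. Leaving out a 2-month library also called none of the 8 and 4.93% (without replicate 1) or 8.55% (without replicate 2) of all genes, in fits whose spread comes from the 24-month pair alone. The fitted changes kept their size there, at 1.78 and 1.57 for Fdps, 1.54 and 1.64 for Pmvk, 1.43 and 1.27 for Mvk and 1.33 and 1.116 for Mvd. Total-count scaling called 2, Fdps and Pmvk, and 11.2% of all genes, and moved the split of all calls from 47.3% to 29.0% higher and the median of all genes from -0.01 to -0.21. Upper quartile scaling moved that split to 59.6% and the median to 0.17, and the fitted changes of the 4 enzymes were positive under each scaling tried. In bulk samples, fewer cells of a type and less RNA per cell cannot be told apart.

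Fdps was at 409 and 379 CPM in the 2-month libraries and at 1713 and 925 CPM in the 24-month libraries, a log2 change of 1.69 (SE 0.388, adjusted p = 0.0164). Pmvk was at 38.0 and 43.5 CPM in the younger cells and at 159 and 98.4 CPM in the older ones, a log2 change of 1.61 (SE 0.356, adjusted p = 0.0147). Both 24-month libraries lay above both 2-month libraries for each gene, and replicate 1 was the higher. Mvk was at 44.0 and 42.2 CPM and then at 153 and 77.7 CPM, a log2 change of 1.37 (SE 0.388, adjusted p = 0.0299). Mvd measured 45.6 and 41.9 CPM and then 134 and 80.5 CPM, a log2 change of 1.24 (SE 0.359, adjusted p = 0.0319). These groups did not overlap, and again replicate 1 was above replicate 2. Under the length correction the 4 changes were 0.73 for Fdps (adjusted p = 0.113), 0.52 for Pmvk (0.260), 0.60 for Mvk (0.232) and 0.55 for Mvd (0.251).

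Acat2 was at 183 and 170 CPM in the younger and 320.7 and 231 CPM in the older cells, and its log2 change of 0.59 (SE 0.331) had an adjusted p of 0.198. Ggps1 measured 57.0 and 50.7 CPM and then 38.2 and 37.3 CPM, and its log2 change of -0.56 (SE 0.313) had an adjusted p of 0.193. Neither gene overlapped between the ages, which held for 7 of the 8 enzymes and for 74.3% of all tested genes. Hmgcs1 was at 777 and 782 CPM in the younger and 347 and 698 CPM in the older cells, with a log2 change of -0.62 (SE 0.393, adjusted p = 0.249). The 2-month pair lay close together, and 24 months replicate 1 lay far below replicate 2.

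Idi1 differed most between the 24-month libraries, at 12.6 CPM in replicate 1 (172 counts) and 117 CPM in replicate 2 (2628 counts), with 106 and 113 CPM at 2 months. Its fitted log2 change of -0.80 (SE 0.747, adjusted p = 0.432) was -3.24 without replicate 2 and -0.0008 without replicate 1. Replicate 1 lay 3.16 below replicate 2 on the log2(CPM + 0.5) scale. Of 14488 genes compared, 18 lay lower, and 0 of the 1446 genes in its length bin (1 of 10), whose median was -0.13. The same difference was -1.01 for Hmgcs1, while Mvk (0.97), Fdps (0.89), Mvd (0.73), Pmvk (0.69) and Acat2 (0.47) were higher in replicate 1 and Ggps1 (0.03) was nearly level. Leaving out a 24-month library makes that age 1 sample, so that the spread comes from the 2-month pair alone and the variation between the older libraries is not counted. Without 24 months replicate 1, 5 enzymes and 39.6% of all genes were called, with the same 4 enzymes higher (Fdps 1.14, Pmvk 1.18, Mvd 0.79, Mvk 0.76) and Ggps1 at -0.62 (adjusted p = 0.0226). Without replicate 2 all 8 enzymes and 58.3% of all genes were called, 5 of the enzymes higher and 3 lower.

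**Figure D4:**
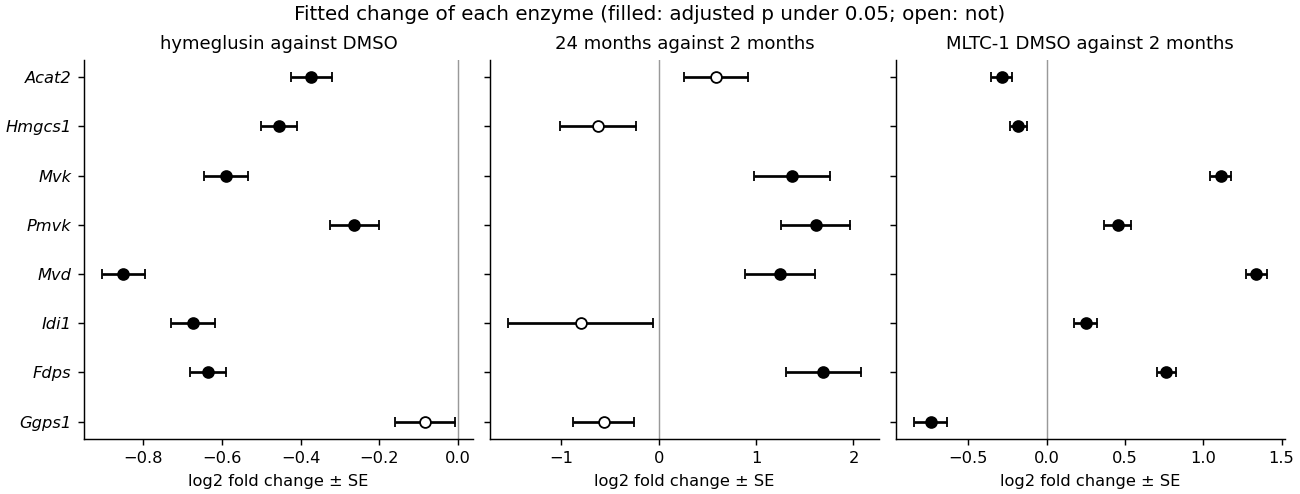
Fitted log2 fold change and its SE for each enzyme in the 3 comparisons, each panel with its own axis; filled points have an adjusted p under 0.05. The error bars are wider between the ages (Idi1 SE 0.747) than with hymeglusin (Idi1 SE 0.056).

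Transcript length moved with the age values. The 4 enzymes called higher have the shortest longest transcripts of the 8, at 1194 bases for Pmvk, 1382 for Fdps, 1660 for Mvk and 1756 for Mvd, against 2250 for Acat2, 3027 for Idi1, 3464 for Hmgcs1 and 4244 for Ggps1. Across these 8 genes, which share libraries and are not independent replicates, the age change and log length had a Pearson correlation of -0.953 and a Spearman correlation of -0.881. With hymeglusin the same values were 0.337 and 0.191, and between the line and the 2-month cells -0.739 and -0.691. Over all genes tested, the shortest of 10 equal length bins held 840 higher and 23 lower of 1624 between the ages. The longest bin held 19 higher and 893 lower of 1622. Pmvk and Fdps lie in bin 2, with 543 higher and 31 lower of 1619 (median 0.95). Mvk and Mvd lie in bin 3, with 274 higher and 22 lower of 1624 (median 0.58).

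**Figure D5:**
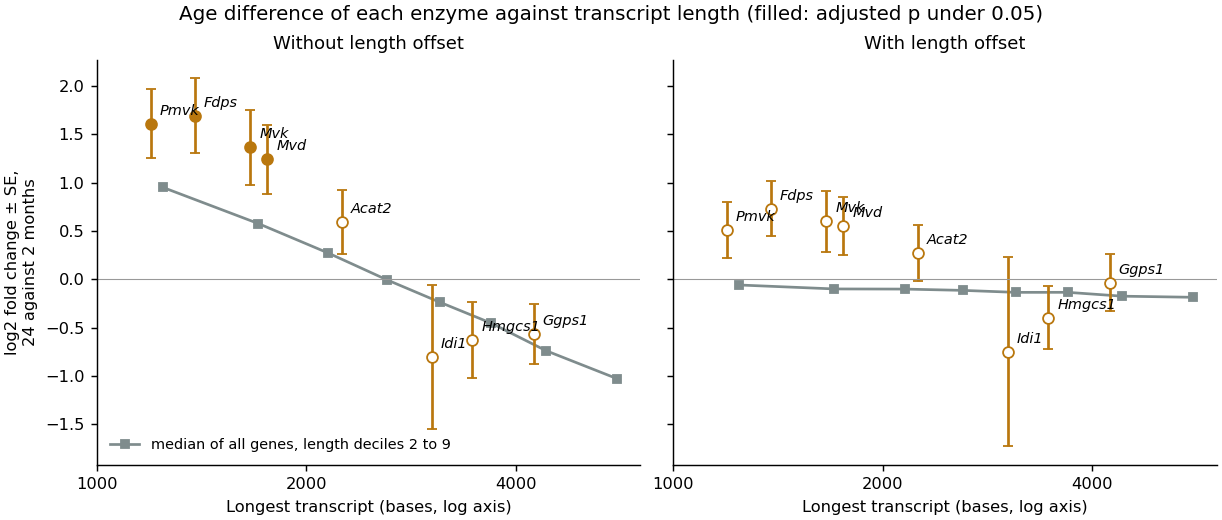
Fitted log2 fold change of the 8 enzymes (points, with SE) against the length of the longest annotated transcript in bases (log axis). The line gives the median of all tested genes in equal bins of length. Between the ages, without the length correction, it runs from 0.95 in bin 2 of 10 to -1.03 in bin 9. The 4 shortest enzymes lie above 0.

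Markers of other testis cells also moved with age. Of 10 spermatid markers, 9 were called higher at 24 months and none lower, with summed levels of 1816 to 2452 CPM in the younger and 6124 to 12160 CPM in the older cells. Of 10 macrophage markers, 5 were called higher and none lower, with summed levels of 14.3 to 16.8 CPM and 52.9 to 66.3 CPM. All 10 genes of each list were detected at both ages. Of 4 fibroblast markers, 2 were called lower and 1 higher. They summed to 395 to 410 CPM in the younger and 76.1 to 149 CPM in the older cells. Pdgfra averaged 215 and 49.0 CPM at the 2 ages and Dcn 185 and 58.9 CPM. The other markers had higher means in the older cells, Lum at 0.219 and 1.91 CPM and Col1a1 at 1.65 and 2.74 CPM. The part of these cells, of transcript length and of the library that stood apart in the age values of the enzymes was not tested.

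In the surrounding lists between the ages, 13 genes were called, 6 higher and 7 lower, where 28.6% of all tested genes were called. Of 13 squalene to cholesterol genes, 2 were higher and 1 lower (median -0.21). Ebp, the sterol isomerase, rose by 1.57 and Tm7sf2, a sterol reductase, by 1.19. Of 13 SREBP control genes, Mylip, a ligase that degrades the LDL receptor, was higher by 2.07 and 3 were lower (median -0.69), among them Stard4 at -1.55 and Srebf2, which encodes SREBP2, at -1.07. Acss2, the acetyl-CoA synthetase, and Slc25a1 were higher among 5 acetyl-CoA suppliers, by 1.28 and 1.49. Of 19 isoprenoid users, Rabggta, a subunit of the enzyme that prenylates Rab proteins, was higher by 1.31 and 3 were lower, including Chm, the Rab escort protein, at -1.87 and Icmt, which methylates prenylated proteins, at -1.11. Under the length correction 7 of these 10 named genes lost their call: Ebp was at 0.88 (adjusted p = 0.0707), Tm7sf2 at 0.32 (0.502), Stard4 at -0.81 (0.0895), Srebf2 at -0.34 (0.460), Slc25a1 at 0.72 (0.170), Icmt at -0.41 (0.370) and Chm at -1.23 (0.0677).

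None of the 6 tested paralogs was called between the ages, where 2 had an unadjusted p under 0.05. The values were 0.97 for Acaa1a (adjusted p = 0.0602), -0.93 for Acat3 (0.0597), 0.22 for Acat1 (0.623), 0.22 for Acaa2 (0.654) and -0.50 for Hadhb (0.252). DESeq2, which called 34.9% of all genes, called Acat3 and Acaa1a, as did 1 fit of all 10 libraries, which called 51.8%. Acat3 was also called without a count filter (adjusted p = 0.0458) and under the length correction, at -1.30 (0.0224). Acaa1a was also called under upper quartile scaling (0.0417).

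Between the DMSO-treated line and the 2-month primary cells all 8 enzymes were called, 5 higher and 3 lower, where 82.8% of all 16092 tested genes were called (34.4% higher and 48.5% lower), so that this count is near the background. None of the 8 overlapped between these groups, and 89.2% of all tested genes did not. Mvd was 1.34 higher in the line on the log2 scale (SE 0.067, adjusted p = 1.49e-07), Mvk 1.11, Fdps 0.76, Pmvk 0.45 and Idi1 0.25 higher, while Ggps1 was at -0.74, Acat2 at -0.29 and Hmgcs1 at -0.18. The median of all genes was -0.27 in this comparison, so the values of Acat2 and Hmgcs1 lay near it. Hmgcs1 lost its call without DMSO replicate 2 (adjusted p = 0.0708) or DMSO replicate 3 (0.0616), and Idi1 lost its call under upper quartile scaling (0.203), a stricter filter on low levels (0.320) and the length correction (0.0562). Under the length correction Acat2 turned to 0.03, Pmvk moved to 1.37 and Fdps to 1.46, and Hmgcs1 to -0.29. All 10 spermatid markers were called lower in the line. They summed to 6.99 to 7.47 CPM with DMSO and 1816 to 2452 CPM at 2 months. Of 8 Leydig cell markers 6 were lower and 2 higher (median -1.39). Of 10 macrophage markers 9 were lower, and of 3 tested fibroblast markers 3 were lower. Of 5 tested spermatogonia and spermatocyte markers 5 were lower, and of 5 tested Sertoli markers 4 were lower and 0 higher. The 1 tested lymphocyte marker was lower, and the 1 tested red blood cell marker was not called. Of 4 tested endothelium markers 2 were lower and 1 higher, and of 3 tested peritubular myoid markers 1 was lower and 1 higher. The part of these marker differences in the enzyme values was not tested. Cell line, culture, cell mixture, treatment with solvent and age cannot be told apart here.

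In the lists around the enzymes, the median of each of the 4 lists below was above 0 in the line. Of all tested genes, 82.8% were called in this comparison. Of 13 SREBP control genes 8 were higher and 5 lower (median 0.90), with Srebf1 and Srebf2, which encode the SREBPs, at 2.08 and 1.83 and Rnf139, a ubiquitin ligase, at -1.57. Of 13 squalene to cholesterol genes 8 were higher and 5 lower (median 0.23), with Lbr at 1.89, Hsd17b7 at 1.40, Tm7sf2 at -1.71 and Nsdhl, a sterol dehydrogenase, at -1.08. Of 5 acetyl-CoA suppliers 4 were higher and 1 lower (median 0.76), with Slc25a1 at 1.36, Pdha1, a pyruvate dehydrogenase subunit, at 0.92 and Dlat, another subunit of that complex, at -0.31. Of 19 isoprenoid users 13 were higher and 1 lower (median 0.37), with Dolk at 0.96 and Fnta, the shared alpha subunit of farnesyl and geranylgeranyl transferases, at -0.62.

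Of the 6 paralogs 1 was higher and 4 were lower in the line (median -0.94). Acat3 was at -4.50, Hadhb at -1.09, Acaa2 at -0.78 and Acaa1a at 0.43; Acat1 was at 0.04 (adjusted p = 0.524). Acat3 counts per Acat2 count were 0.0115 to 0.0146 with DMSO and 0.227 and 0.248 at 2 months.

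Per kilobase of the longest transcript, Fdps had the highest mean of the 8 in each of the 4 groups, Hmgcs1 the next and Acat2 the third, and Ggps1 had the lowest. With DMSO the levels per kilobase were 486 ± 12.3 CPM for Fdps (SD, n = 3), 199 ± 4.45 for Hmgcs1, 64.6 ± 4.04 for Acat2, 63.3 ± 1.61 for Mvd, 56.3 ± 1.20 for Mvk, 47.0 ± 1.53 for Pmvk, 43.2 ± 2.74 for Idi1 and 7.62 ± 0.934 for Ggps1. Acat2 and Mvd overlapped between libraries, as did Pmvk and Idi1. At 2 months Fdps stood at 285 ± 15.7 CPM per kilobase (SD, n = 2), Hmgcs1 at 225 ± 0.848 and Ggps1 at 12.7 ± 1.05. At 24 months the Fdps libraries were at 1239 and 670 CPM per kilobase, and Hmgcs1 at 100.2 and 202. In 24 months replicate 1 the order differed from that of the means, with Acat2 at 143 and Pmvk at 133 CPM per kilobase above Hmgcs1.

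Counting could blur some of these levels. Of 50-base stretches of the longest transcript, 86.4% of those of Fdps also occur in transcripts of other genes, mostly the readthrough gene Gm43738, 45.9% of those of Acat2 occur in Acat3, 21.3% of those of Idi1 in Gm13502 and 6.79% of those of Ggps1 elsewhere, and none for Hmgcs1, Mvk, Pmvk and Mvd. On the opposite strand, exons of Ggps1 share 257 bases with Arid4b, those of Hmgcs1 557 bases with the antisense gene Gm48342 and those of Idi1 323 bases with Gm48574. How reads in shared stretches and on each strand were counted is not given in the sources used here, so levels of Fdps, Acat2, Idi1, Ggps1 and Hmgcs1 are uncertain to that extent. Of these overlapping genes, Arid4b is a row of the count table and Gm43738, Gm48342 and Gm48574 are not.

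In RefSeq coordinates (GRCm38.p6) the genes lie on 5 chromosomes. Hmgcs1 is at chr13:119690351-119708260, Idi1 at chr13:8885606-8892396 and Ggps1 at chr13:14049790-14063566, the last on the minus strand. Fdps is at chr3:89093588-89101967 on the minus strand and Pmvk at chr3:89454541-89469014. Mvk is at chr5:114444264-114460591, Mvd at chr8:122433596-122443422 on the minus strand and Acat2 at chr17:12943042-12960725 on the minus strand.

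Across the 10 libraries the level pattern of Hmgcs1 was most like that of Insig1 among 10878 genes (Pearson r = 0.991 of log2 CPM), followed by Gab1 (0.983), Zfp654 (0.971), Fcho2 (0.965) and Pabpc4l (0.961). Among the enzymes Idi1 was the closest, at 0.888 and position 106. Over all 10 libraries Mvk (-0.622), Pmvk (-0.652) and Fdps (-0.572) had negative correlations with Hmgcs1. With hymeglusin, however, Hmgcs1 (-0.45), Mvk (-0.59), Pmvk (-0.26) and Fdps (-0.63) all fell on the log2 scale. Between the ages, without the length correction, Hmgcs1 was at -0.62 (not called) and Mvk, Pmvk and Fdps at 1.37, 1.61 and 1.69. These correlations describe 10 libraries that share 4 groups and a common scaling. Insig1 measured 222, 217 and 224 CPM with DMSO, 163, 176 and 176 CPM with hymeglusin, 248 and 243 CPM in the younger and 127 and 220 CPM in the older cells, and its order of groups matched that of Hmgcs1 in placing 2 months above DMSO and DMSO above hymeglusin.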

How the data were processed

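Libraries were made from 1.3 ug of total RNA with an NEBNext Ultra kit, per the labels' protocols. Per the submitters' processing notes reads were counted on build mm10 with featureCounts 2.0.6, and HISAT2 2.2.1, fastp 0.23.4 and FastQC 0.12.1 are listed beside it; strand and counting options are not given in the sources used. The authors deposited raw counts per gene symbol, 25239 symbols without duplicates, and 0 columns lacked a sample.

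From these counts, each comparison was fitted on its own groups with edgeR 4.0.16 (R 4.3.3): TMM scaling, filterByExpr with a minimum count of 10 and a minimum total of 15, the robust quasi-likelihood F test and Benjamini-Hochberg adjustment over all tested genes, called at 0.05. Every adjusted p comes from this test unless DESeq2 is named. The standard error is the size of the log2 change divided by the square root of F. Alternatives used limma-voom (limma 3.58.1), DESeq2 1.42.0, scaling by total counts, RLE or upper quartile, no filter, a mean of at least 10 CPM, a replicate block, 1 fit of all 10 libraries, each library left out and an offset for transcript length (loess, span 0.3, on the longest GENCODE M21 transcript, 99.0% to 99.2% of tested genes). The offset was centred in each library after its uncentred form was seen to move the median of all genes. The code was tested on simulated data.

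Some genes that the naming rule takes are counted in their lists but not reported here. The enzymes, gene lists and markers were chosen with earlier results of these data known. Named genes are every enzyme, every tested paralog, up to 2 called genes per direction of each other list by adjusted p, and the 5 genes most correlated with Hmgcs1 among those whose log2 CPM averaged 2 or more. Motifs were searched in RefSeq promoters. Marker lists for 10 cell types were read. Between the ages, none of the tested genes of the Sertoli, endothelium, lymphocyte, red blood cell or spermatogonia and spermatocyte lists was called, 1 of 4 tested peritubular myoid genes was higher, 1 fibroblast gene was higher and 2 lower, and 1 of 8 Leydig genes was higher and 1 lower. With hymeglusin, 5 of 7 tested Leydig genes were lower and none higher.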

Additional observations from a re-analysis of the deposited data

How the results depend on the processing

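With hymeglusin, 7 enzymes were called under each alternative and each library left out, except in 1 fit of all 10 libraries. That fit called 1 enzyme and 5 genes of the surrounding lists (39 in the separate fit). Of all 17109 genes it tested, it called 5.46% (48.3% in the separate fit). It shares 1 estimate of the spread with the primary cells, whose libraries vary more. Between the ages it called 6 enzymes, 5 higher and 1 lower, among them Acat2 (adjusted p = 0.00719) and Ggps1 (0.0149). There it also called 33 surrounding genes (13 in the separate fit) and 51.8% of all genes (28.6% in the separate fit). Between the line and 2 months it called 5 enzymes and 70.8% of all genes (82.8% in the separate fit). Ggps1 turned to 0.0208 with hymeglusin under total counts.

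Between the ages, where 4 enzymes were called, total counts left 2 and the length offset 0, centred or uncentred, the centring being chosen after seeing the data. Leaving out 1 library gave 0 to 8 enzymes and 1 to 40 surrounding genes, with the lone library assumed to vary like the other age. The surrounding genes numbered 4 under total counts, 7 under the length offset and 8 under its uncentred form. Acaa2 turned to -0.0113 under total counts, -0.63 and -0.51 under the centred and uncentred offsets and ran from -0.13 (without 24 months replicate 1) to 0.41 (without 24 months replicate 2) when 1 library was left out, and Ggps1 to 0.0809 under the uncentred offset.

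Between the line and 2 months, the uncentred offset moved the median of all genes to 0.90 and turned Hmgcs1 to 0.72, Ggps1 to 0.0255, Acat2 to 1.04, Fnta to 0.77, Nsdhl to 0.26, Dlat to 0.48, Acaa2 to 0.81 and Hadhb to 0.27. The centred offset turned Acat2 to 0.0315 and Acat1 to -0.0635. Acat1 was also at -0.10 under upper quartile scaling, -0.12 with a mean of at least 10 CPM and ran from -0.0054 (without DMSO replicate 1) to 0.0623 (without DMSO replicate 3). The cause of these changes was not tested.

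Same-numbered libraries did not deviate together (correlations of 0.0111, -0.0019 and -0.0059 with hymeglusin and -0.0698 between the ages), so the numbers were not taken as pairs. With a replicate block 7 enzymes were called with hymeglusin, 4 between the ages and 8 between the line and 2 months, and 39, 13 and 45 surrounding genes. In the same order, 49.4%, 29.1% and 79.6% of all tested genes were called with the block. The smallest enzyme count in any library was 172.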
